A study of Saccharomyces cerevisiae with 9 samples.

Results

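The genes described here are 10 genes of phosphate uptake and storage in the yeast Saccharomyces cerevisiae, followed over increasing doses of bisphenol A (BPA), the monomer of polycarbonate plastics. They are PHO84, PHO89, PHO5, PHO8, PHO81, PHO86, SPL2, VTC1, VTC3 and GIT1. They were chosen by name, as the probe sets whose annotated gene symbol is one of these 10, out of 5449 genes measured on the arrays. Each had 1 probe set, and all 10 lay above background on all 9 arrays. The cultures, of a strain not given in the sources used here, grew in rich YPD broth and were treated for 180 min in mid-exponential phase. Of the 9 cultures, 3 controls received ethanol, the solvent, without BPA, 3 received BPA at 50 mg/L and 3 received BPA at 300 mg/L, with 1 array per culture. Values are log2 expression levels, so a difference of 1 is a 2-fold change. Each is set against the rest of the RNA on its own array, and the values hold no measure of phosphate, of transport or of total RNA per cell.

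Yeast senses inorganic phosphate through the PHO pathway. When phosphate is plentiful, the cyclin Pho80 and the kinase Pho85 phosphorylate the transcription factor Pho4, which is then kept out of the nucleus. When phosphate is scarce, Pho81 inhibits the kinase, and Pho4, with its partner Pho2, switches on genes for high-affinity transporters, secreted phosphatases and the enzyme complex that stores phosphate as polyphosphate in the vacuole. One of these transporter genes, PHO89, is also induced by alkaline conditions through the calcium-dependent phosphatase calcineurin and its transcription factor Crz1. The comparisons ask how the transcripts of this system stood at each dose.

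At 300 mg/L BPA the phosphate genes did not move as a block. The sodium-coupled phosphate transporter gene PHO89 rose 10.6-fold over control, SPL2 rose 1.56-fold, and PHO81, VTC3 and PHO86 rose by smaller amounts. The vacuolar phosphatase gene PHO8 and the permease gene GIT1 fell. The main high-affinity transporter gene PHO84 and the acid phosphatase gene PHO5 did not pass the test, and neither did VTC1. In all, 5 of the 10 genes rose and 2 fell by limma at an adjusted p under 0.05. Over all genes, 27.5% rose and 25.2% fell by the same rule, 52.7% together, so a call as such sets no gene apart at this dose. The median change of the 10 genes was 0.20 on the log2 scale, against 0.01 over all genes. With arrays centred on hybridization spike-ins, PHO89, SPL2 and PHO8 passed and the other 4 did not, and centred on S. pombe probe sets 6 rose and 1 fell. Over all genes, S. pombe centring also gave more rises and fewer falls, with a median change of 0.06 in place of 0.01. In RNA from whole cultures, a change in every cell and a larger change in some cells cannot be told apart.

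**Figure D1:**
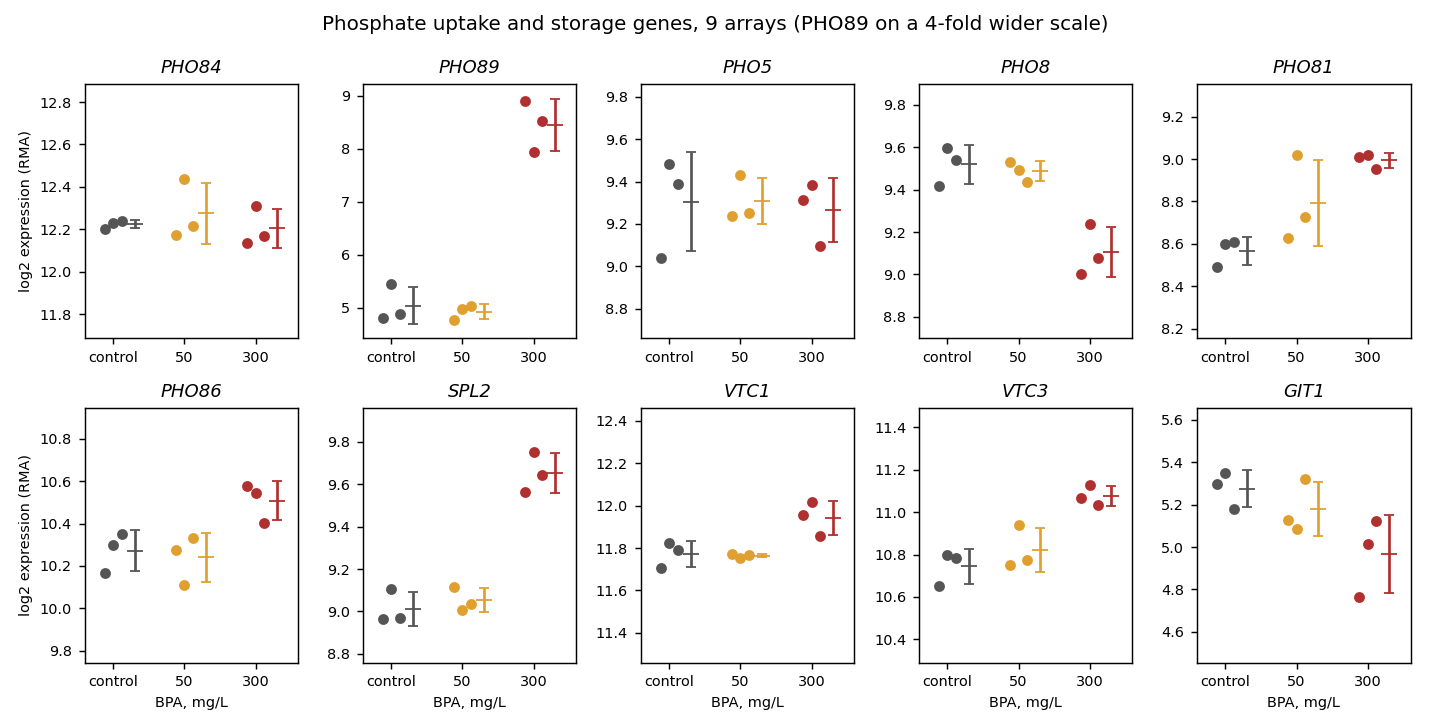
Log2 expression of the 10 genes (y axis) on each array by BPA dose (x axis, mg/L), with points for single arrays and bars for the mean ± SD of 3 arrays. The axes of 9 genes span the same range and that of PHO89 is wider. The 300 mg/L points of PHO89 lie between 7.93 and 8.89 and all others at or below 5.44.

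Of the transporters, PHO89, which carries phosphate together with sodium, had the largest change. Its log2 levels were 4.80, 5.44 and 4.87 in control arrays, 4.76, 4.98 and 5.04 at 50 mg/L, and 8.89, 7.93 and 8.51 at 300 mg/L. The 300 mg/L arrays were far above the other 6, which overlapped one another. PHO89 was higher at 300 mg/L than in control by 3.41 ± 0.23 (SE) on the log2 scale (limma, adjusted p = 3.28e-06). Only 10 of the 5449 genes had a larger rise, which puts PHO89 at rank 11. Its spread was also the widest of the 10 genes, with an SD of 0.49 at 300 mg/L and 0.35 in control (n = 3 each). The lowest of the 300 mg/L values came from replicate 2, and without that array the change was 3.67.

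The H+-coupled transporter gene PHO84, the main route of high-affinity phosphate uptake, stayed within a narrow range. It read 12.20, 12.23 and 12.24 in control arrays, 12.17, 12.44 and 12.21 at 50 mg/L, and 12.14, 12.31 and 12.17 at 300 mg/L. The groups overlapped in each comparison. The difference between 300 mg/L and control was -0.02, with a 95% interval from -0.20 to 0.17 and an adjusted p of 0.869 by limma. PHO86, which encodes an endoplasmic reticulum protein needed for Pho84 to leave that compartment, read 10.16, 10.30 and 10.35 in control, 10.28, 10.11 and 10.33 at 50 mg/L, and 10.58, 10.54 and 10.40 at 300 mg/L. Its 300 mg/L values lay above the rest, though 10.40 was close to the highest control value of 10.35. The rise against control was 1.18-fold (limma, adjusted p = 0.0378). That call was lost without control replicate 1 or 2 and without 300 mg/L replicate 1 or 2, with adjusted p up to 0.142, and with median centring (0.0628). Against 50 mg/L it was 1.20-fold higher (limma, adjusted p = 0.0221), a call lost without 50 mg/L replicate 2 or 300 mg/L replicate 1 or 2.

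GIT1, the permease for glycerophosphoinositol, a phosphate-containing breakdown product of membrane lipids, moved the other way. It read 5.30, 5.35 and 5.18 in control, 5.13, 5.09 and 5.32 at 50 mg/L, and 4.76, 5.01 and 5.12 at 300 mg/L. All 3 arrays at 300 mg/L lay below all control arrays, but they overlapped the 50 mg/L arrays. GIT1 fell by 0.31 ± 0.10 (SE) against control (limma, adjusted p = 0.0283). Without 300 mg/L replicate 1 the difference was -0.21 and the adjusted p 0.114, and the call was also lost without control replicate 1 or 2 and with arrays centred on S. pombe probe sets. With quantile normalization repeated on the deposited values the difference was -0.69.

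Of the regulators, SPL2 rose in both comparisons of 300 mg/L. It encodes a small protein that lowers low-affinity phosphate uptake when the PHO pathway is on. Its levels were 8.96, 9.10 and 8.97 in control, 9.12, 9.01 and 9.03 at 50 mg/L, and 9.57, 9.75 and 9.64 at 300 mg/L. The 300 mg/L arrays stood clear of the other 6. The rise was 0.64 ± 0.07 (SE) against control and 0.60 ± 0.07 against 50 mg/L, with adjusted p of 8.63e-05 and 0.000120 by limma.

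PHO81, the inhibitor of the Pho80-Pho85 kinase, was the only one of the 10 whose 50 mg/L arrays all lay above the control arrays. It read 8.49, 8.60 and 8.61 in control, 8.63, 9.02 and 8.73 at 50 mg/L, and 9.01, 9.02 and 8.95 at 300 mg/L. At 300 mg/L it rose 1.35-fold against control (limma, adjusted p = 0.00405). The 50 mg/L level was between the others, by 0.23 ± 0.10 (SE) above control, and did not pass (limma, adjusted p = 0.581). Nor did 300 mg/L differ from 50 mg/L by the test, at 0.20 ± 0.10 and an adjusted p of 0.1005 by limma. That comparison turned on 1 array. Replicate 2 at 50 mg/L was as high as the 300 mg/L arrays, and without it the difference was 0.32 with an adjusted p of 0.00332.

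The phosphatases did not move together. PHO8, the vacuolar alkaline phosphatase, read 9.42, 9.60 and 9.54 in control, 9.53, 9.49 and 9.44 at 50 mg/L, and 9.00, 9.24 and 9.08 at 300 mg/L. Its 300 mg/L arrays were all below the other 6. It fell by 0.41 ± 0.08 (SE), which is 1.33-fold (limma, adjusted p = 0.00169). PHO5, the secreted acid phosphatase and the classic reporter of the pathway, read 9.04, 9.48 and 9.39 in control, 9.24, 9.43 and 9.25 at 50 mg/L, and 9.31, 9.38 and 9.09 at 300 mg/L. These groups overlapped throughout. The difference between 300 mg/L and control was -0.04, with a 95% interval from -0.31 to 0.23 (limma, adjusted p = 0.799).

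VTC1 and VTC3 encode subunits of the vacuolar transporter chaperone complex, which makes polyphosphate and passes it into the vacuole. VTC3 read 10.65, 10.80 and 10.78 in control, 10.75, 10.94 and 10.77 at 50 mg/L, and 11.07, 11.13 and 11.03 at 300 mg/L. Its 300 mg/L arrays were above all others, and it rose 1.26-fold against control (limma, adjusted p = 0.00411) and 1.19-fold against 50 mg/L (limma, adjusted p = 0.0157). Without 50 mg/L replicate 3 or 300 mg/L replicate 2, the second of these did not pass (up to 0.0522). VTC1 read 11.70, 11.82 and 11.79 in control, 11.77, 11.76 and 11.77 at 50 mg/L, and 11.95, 12.02 and 11.86 at 300 mg/L. Although these 300 mg/L values were also the highest 3, the difference of 0.17 ± 0.07 (SE) from control missed the threshold (adjusted p = 0.0545), while that of 0.18 ± 0.07 from 50 mg/L met it (adjusted p = 0.0453), both by limma. The call against 50 mg/L was lost without any 1 array other than 300 mg/L replicate 3, with adjusted p from 0.0539 to 0.144, and VTC1 passed against control without 50 mg/L replicate 2 or 300 mg/L replicate 3. In simulated data with 3 arrays against 3, 200 of 5449 genes were changed. There 38.8% of genes changed by 1.25-fold were found, and 81.6% of those changed by 1.5-fold. The 300 mg/L arrays had many more calls, 52.7% of all genes, and the adjusted threshold is less strict where more genes are called. The simulated shares are therefore not those of this comparison.

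**Figure D2:**
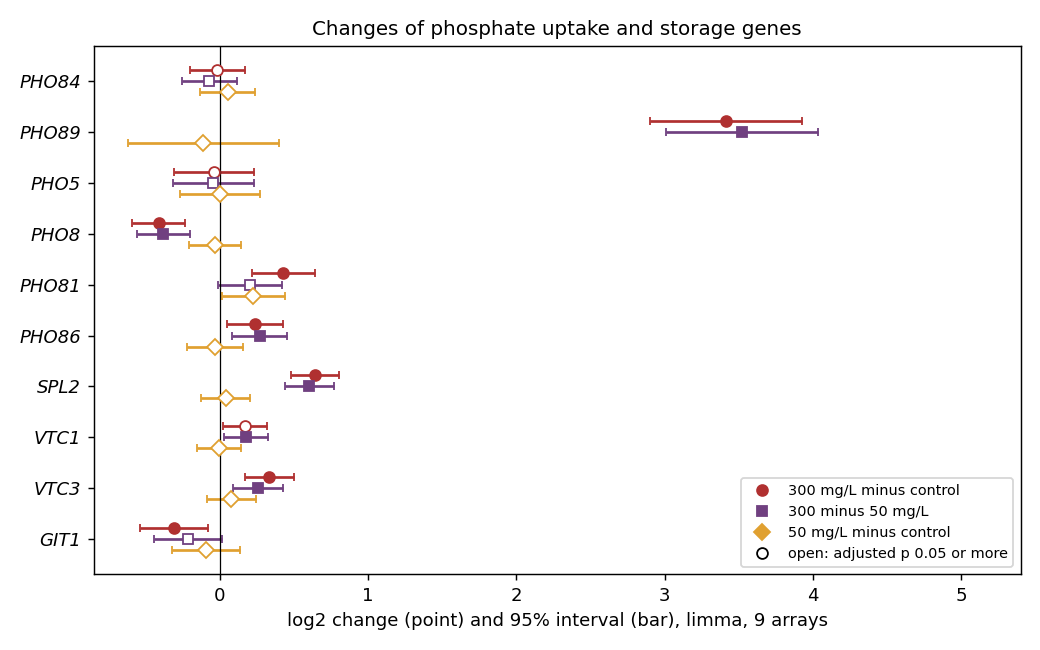
Log2 changes (x axis) of the 10 genes (rows) in the 3 comparisons, as points with 95% intervals from limma over 9 arrays. Filled points passed an adjusted p of 0.05 and open points did not, which includes every 50 mg/L point. PHO89 lies at 3.41 and 3.52 in both comparisons of 300 mg/L, apart from the other 9 genes, which lie between -0.41 and 0.64.

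The comparison of 50 mg/L with control asks whether the lower dose moves the same genes. limma called 0 of the 10 at 50 mg/L, where 0% of all genes passed. PHO81 was the 1 of 10 with an unadjusted p under 0.05, where 7.14% of all genes had one. Changes of the 10 genes ran from -0.11 for PHO89 to 0.23 for PHO81, with a median of -0.003. For PHO89 the 95% interval was -0.62 to 0.40, and for SPL2 it was -0.13 to 0.20, which lies below the 300 mg/L changes of both genes.

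The comparison of 300 with 50 mg/L tests the difference between the doses directly. Of the 10 genes 5 rose, PHO89, SPL2, PHO86, VTC3 and VTC1, and 1 fell, PHO8, where 27.5% of all genes rose and 25.3% fell, 52.8% together. PHO89 was higher at 300 than at 50 mg/L by 3.52 ± 0.23 (SE) with an adjusted p of 2.82e-06, and PHO8 was lower by 1.30-fold with an adjusted p of 0.00266, both by limma. PHO84, PHO5, PHO81 and GIT1 did not pass. GIT1 did with quantile normalization repeated, where its difference was -0.60 (adjusted p = 0.00105) in place of -0.21. Both comparisons of 300 mg/L use the same 3 arrays at that dose. Without 300 mg/L replicate 2, 3 of the 10 genes passed against 50 mg/L, 2 higher and 1 lower, and with spike-in centring PHO89 and SPL2 alone of the 10 passed.

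Groups that do not overlap were counted as a description. At 300 mg/L, 6 genes had all arrays above control and 2 had all below, where 35.2% and 32.6% of all genes did. Against 50 mg/L the counts were 5 and 1, where 30.9% and 28.8% of all genes did. At 50 mg/L against control they were 1 and 0, where 6.06% and 6.5% of all genes did. Replicate 2 was the highest of its group for 7 of the 10 genes both at 300 mg/L and in control, a count not made for all genes. The median deviation of the 10 genes from their group means was 0.06 on each of these arrays, against 0.02 and 0.01 over all genes. Control replicate 1 was the highest of its group for 0 of the 10, with a median deviation of -0.08, against -0.003 over all genes. Without 300 mg/L replicate 2, 6 of the 10 genes passed against control, and without control replicate 1 or 2, 5 did, in place of 7. Calls over all genes also fell without each of these arrays, so a loss of calls as such does not set the 10 genes apart.

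The upstream regulators of the pathway were measured on the same arrays. PHO4, the transcription factor, read 8.47, 8.75 and 8.57 at 300 mg/L, against 8.12, 8.17 and 8.13 in control, and rose 1.37-fold (limma, adjusted p = 0.00355). PHO85, the kinase that restrains Pho4 and has further targets outside the pathway, read 8.26, 8.30 and 8.42 at 300 mg/L, against 9.01, 9.03 and 8.84 in control. It fell by 0.64 ± 0.12 (SE) (limma, adjusted p = 0.00125). The arrays do not measure the phosphorylation or location of Pho4, and any link of these changes to other genes was not tested. The cyclin gene PHO80 and the Pho4 partner gene PHO2 did not pass, with differences of 0.08 ± 0.07 and -0.20 ± 0.10 (SE). PHO2 did pass against control without 50 mg/L replicate 2 (adjusted p = 0.0243) and with only these groups fitted (0.0345), at an unchanged difference. Against 50 mg/L it fell by 0.30 ± 0.10 (SE) (limma, adjusted p = 0.0313), a call lost without 50 mg/L replicate 2, where the difference was -0.18, and without 300 mg/L replicate 1 or 3. Of the other signalling genes PHO92, a reader of methylated RNA, rose at least 1.56-fold (limma, adjusted p = 0.00611), given as a bound because all 3 control arrays were not above background. IPK1, an inositol polyphosphate kinase, fell by 0.32 ± 0.12, a call that was lost without control replicate 1, 2 or 3, without 50 mg/L replicate 1 and without 300 mg/L replicate 2 or 3, with adjusted p from 0.0501 to 0.168. The inositol phosphate kinase genes KCS1, VIP1 and ARG82 did not pass.

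Across 26 measured of 29 other phosphate genes listed, 6 rose, 3 fell and 17 did not pass at 300 mg/L against control, where 52.7% of all genes passed. Their median change was 0.02. Against 50 mg/L, 7 rose and 4 fell, 11 in all, where 52.8% of all genes passed. The largest rises were in PHM6 and PHO11. PHM6, a target of the PHO pathway whose protein has no known function, read 7.15, 7.71 and 7.10 at 300 mg/L, against a range from 5.67 to 6.10 over the control arrays, and rose 2.64-fold (limma, adjusted p = 0.000181). A second target gene, PHM7, rose by 0.86 ± 0.22 (SE) (limma, adjusted p = 0.00796), although replicate 2 at 300 mg/L stood at 5.70 beside 6.54 and 6.54.

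PHO11 encodes a secreted acid phosphatase related to PHO5. The PHO11 probe set read 8.67, 9.17 and 9.10 in control, 8.93, 8.96 and 8.89 at 50 mg/L, and 10.31, 10.44 and 10.32 at 300 mg/L. It rose 2.59-fold against control (limma, adjusted p = 1.27e-05), where the PHO5 probe set did not pass. By its suffix the probe set can match more than 1 related sequence, so PHO11 and its near-identical relative PHO12, which has no probe set of its own name here, cannot be told apart. PHO3, the acid phosphatase gene next to PHO5 in the R64 gene order, fell by 0.41 ± 0.09 (SE) (limma, adjusted p = 0.00274). Within each array, the change of PHO11 minus that of PHO5 was 1.32, 1.38 and 1.55 at 300 mg/L, against -0.04, 0.01 and 0.04 in control. The pair was chosen after its values were seen, so these values are a description, with no test.

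Of the low-affinity transporters and polyphosphate enzymes, most did not pass. PHO90, a low-affinity transporter gene, rose by 0.26 ± 0.09 (SE) (limma, adjusted p = 0.0318), a call lost without control replicate 1 or 2 or without any 1 of the 300 mg/L arrays (adjusted p from 0.0554 to 0.125), although the difference remained between 0.20 and 0.28. The related PHO87 and the vacuolar PHO91 did not pass, at -0.04 ± 0.09 and -0.11 ± 0.11. Of 5 measured polyphosphate genes other than VTC1 and VTC3, 0 passed against control, where 52.7% of all genes did. Against 50 mg/L, the polyphosphatase gene PPN1 fell by 0.31 ± 0.07 (SE) (limma, adjusted p = 0.00392) and DDP1, a phosphatase gene for polyphosphates and inositol pyrophosphates, rose by 0.21 ± 0.08 (limma, adjusted p = 0.0451). Both were named after their values were seen. PPN1 also passed against control with median centring, with only these groups fitted and without 50 mg/L replicate 2 (adjusted p from 0.0249 to 0.0387). The DDP1 call was lost without any 1 array other than 50 mg/L replicate 1. VTC4, the catalytic subunit, read 10.76, 10.96 and 10.73 at 300 mg/L, against 10.72, 10.87 and 10.95 in control, and VTC2 read 10.61, 10.60 and 10.54, against 10.46, 10.64 and 10.62. For both subunits the groups overlapped. The change of VTC3 minus that of VTC4 within each array was 0.41, 0.27 and 0.40 at 300 mg/L, against 0.03, 0.03 and -0.06 in control. This pair too was chosen after its values were seen and has no test.

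**Figure D3:**
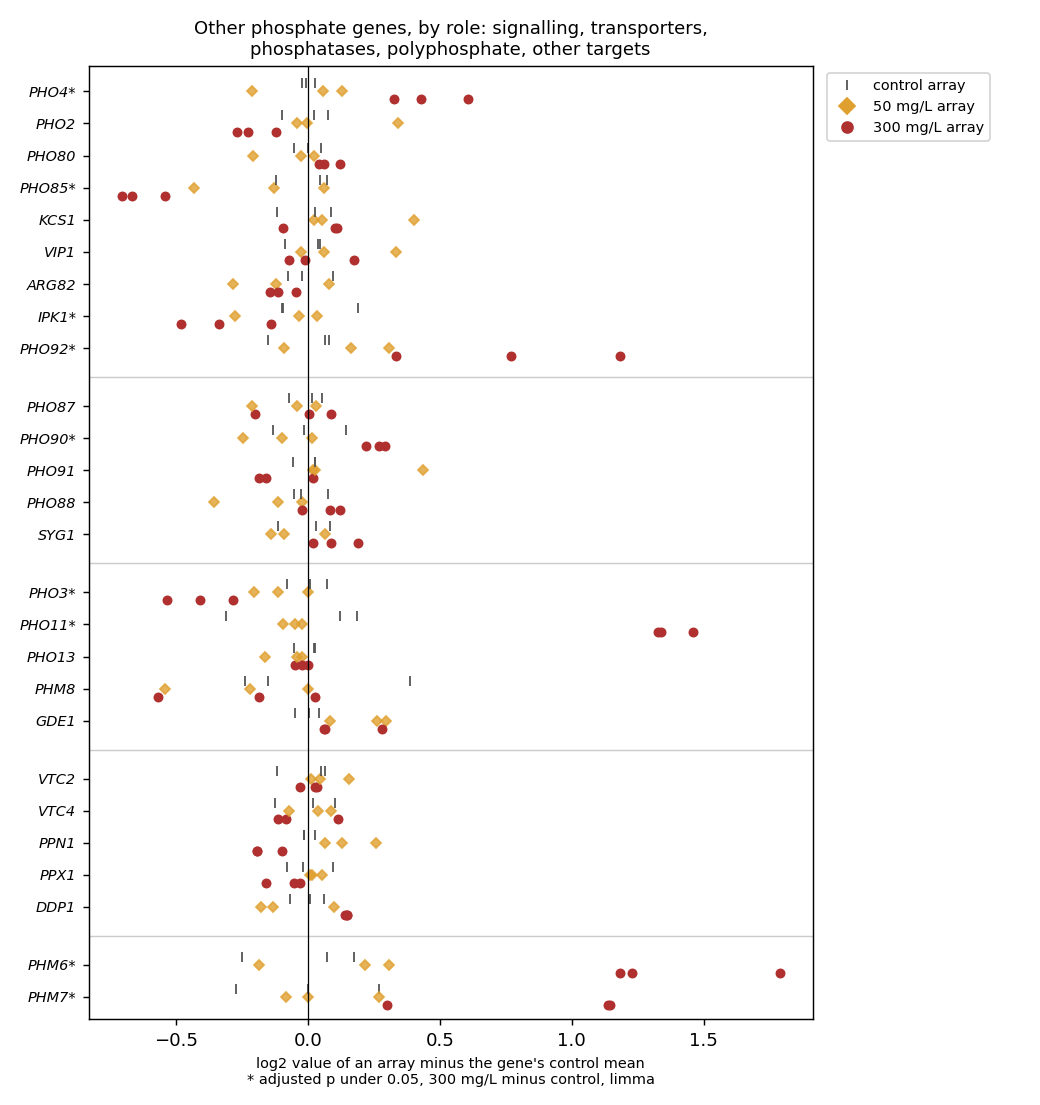
Log2 value of each array minus the gene's control mean (x axis) for 26 other phosphate genes (rows, grouped by role), with ticks for control, diamonds for 50 mg/L and circles for 300 mg/L. Asterisks mark the 9 genes past an adjusted p of 0.05 at 300 mg/L against control. PHO11 and PHM6 have all 300 mg/L arrays more than 1 above their control means.

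Because PHO89 also answers to calcineurin, 14 measured of 16 genes of calcineurin signalling and the alkaline response were examined. Of these, 3 rose, 7 fell and 4 did not pass at 300 mg/L against control, where 27.5% of all genes rose and 25.2% fell, and their median change was -0.23. With arrays centred on S. pombe probe sets, 4 rose and 4 fell, where more of all genes rose and fewer fell than without this centring. Against 50 mg/L, 4 rose and 5 fell, where 27.5% of all genes rose and 25.3% fell. The risers against control were ENA5, a sodium pump of the plasma membrane, CRZ1, the calcineurin-activated transcription factor, and CNB1, the regulatory subunit of calcineurin. CRZ1 read 8.03, 7.86 and 7.94 at 300 mg/L, against 7.32, 7.37 and 7.49 in control, and rose 1.47-fold (limma, adjusted p = 0.00116). ENA5 rose by 0.57 ± 0.07 (SE), with an adjusted p of 0.000141, and CNB1 by 0.26 ± 0.07, with an adjusted p of 0.00969, both by limma. CMP2 and CNA1, the catalytic subunit genes of calcineurin, fell by 0.33 ± 0.08 and 0.22 ± 0.07 (SE) (limma, adjusted p = 0.00536 and 0.0203). Both were named after their values were seen. The CNA1 call was lost without control replicate 1 or 2, without 300 mg/L replicate 1 and with S. pombe centring. The ENA5 probe set can match related pump genes. A second ENA5 probe set, not used in the test because it is dimmer, differed by 0.23.

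The fallers included GSC2, a cell wall glucan synthase gene that Crz1 is known to activate. GSC2 read 9.93, 9.26 and 10.03 at 300 mg/L, against 11.02, 10.87 and 10.83 in control, and fell by 1.17 ± 0.17 (SE) (limma, adjusted p = 0.000351). RIM101, the transcription factor of the alkaline response, read 7.60, 7.61 and 7.62 at 300 mg/L, against 8.05, 8.10 and 8.03 in control, and fell 1.37-fold (limma, adjusted p = 0.000346). RCN2, a regulator of calcineurin, fell by 0.60 ± 0.20, a call lost without control replicate 1 or 2 (adjusted p = 0.0882 and 0.0628) and without 300 mg/L replicate 2, where the difference was -0.38 (adjusted p = 0.0848). Without control replicate 1, and likewise without control replicate 2, 6 genes of this list passed in place of 10, with 3 higher and 3 lower each time. Calls over all genes also fell under both omissions, so a loss of calls as such does not set this list apart.

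**Figure D4:**
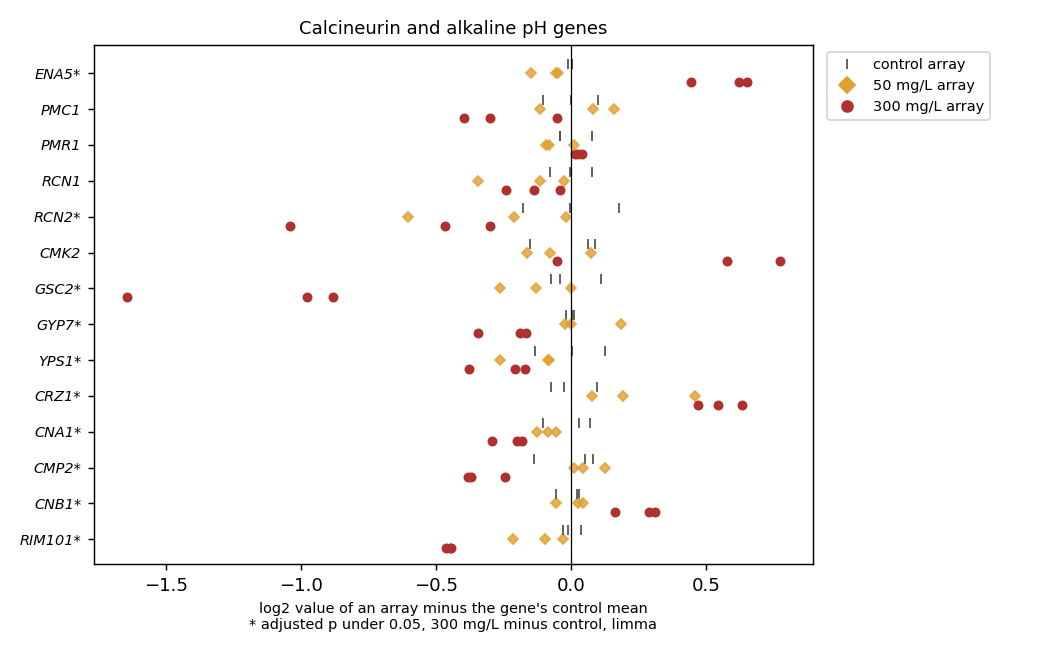
Log2 value of each array minus the gene's control mean (x axis) for 14 calcineurin and alkaline pH genes (rows), with ticks for control, diamonds for 50 mg/L and circles for 300 mg/L. Asterisks mark the 10 genes past an adjusted p of 0.05 at 300 mg/L against control. ENA5, CRZ1 and CNB1 lie to the right of control and 7 genes to the left, with GSC2 farthest.

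The genes whose profiles lay closest to PHO89 and to PHO84 were found by the root mean square difference over 9 arrays, with each profile centred on its control mean. For PHO89 they were YKL107W, at a difference of 0.209, BTN2, a protein sorting factor that handles aggregated proteins, at 0.213, and SAE3, a meiotic recombination factor, at 0.235. Their changes at 300 mg/L were 3.38, 3.41 and 3.47, beside 3.41 for PHO89, and at 50 mg/L -0.11, 0.07 and -0.17, beside -0.11. The control mean of SAE3 was 1.97, where background was 2.12 to 2.20 on the control arrays, so its changes are measured from background. For PHO84 they were RAP1, HEM1 and CDC5, at 0.0303, 0.0327 and 0.0339, all with changes at 300 mg/L between -0.03 and 0.01. The measure uses these same values, so alike changes at each dose follow from how the genes were picked. None of these 6 is on the phosphate lists.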

How the data were processed

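Gene expression was measured on 1-colour oligonucleotide arrays. The deposited table holds a log2 expression value for each probe set on each array, made with RMA, affy and limma per the submitters' processing notes, which give no versions or roles. RMA corrects background, equalises probe intensity distributions between arrays and summarises probe sets, so changes are relative to the rest of an array. No counts or scan batches are given, and precision is limited by how many arrays there are.

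Of 10928 probe sets, 5498 matched S. cerevisiae genes in the R64 table through gene identifiers, leaving 5449 genes after the probe set with the highest mean was kept. The 95th percentile of 1746 Schizosaccharomyces pombe probe sets served as background. Between 5363 and 5418 genes lay above it on each array. Correlations between arrays of 1 group ran from 0.991 to 0.998.

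The test was limma 3.58.1 in R 4.3.3, fitted to all 9 arrays with eBayes moderation. Its p-values are two-sided and were adjusted by the Benjamini-Hochberg method across 5449 genes, and a gene was called under 0.05. Errors of changes are standard errors and intervals are at 95%. The pipeline was tested on simulated data with 200 of 5449 genes changed, where 5.75% of calls were false. Many more genes were called at 300 mg/L, so that share does not describe those comparisons. The replicates are called biological in the labels, without saying how the cultures were started, so p-values measure the spread between these samples. Same-numbered control and 50 mg/L arrays deviated together (correlations from 0.19 to 0.42 in 3 pairs). Their 6 differently numbered pairs ran from -0.43 to 0.18. The labels number the replicates without saying that they are paired, and the main test used no pairing. Same-numbered pairs with 300 mg/L did not deviate together (as low as -0.34). Differently numbered arrays at 300 and 50 mg/L reached 0.40, so a correlation of this size does not by itself mark a pair. Figures were drawn with matplotlib 3.10.9.

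The genes and lists were chosen with earlier results of these data known. Named from the lists were the core regulators, transporters, VTC subunits and acid phosphatases, up to 4 further rises and 4 falls of the other phosphate genes and 3 of each of the calcineurin list, the largest among genes called at 300 mg/L against control. Other scalings, filters, probe set rules, priors, fits and left-out arrays were tried as alternatives. No sequences are shown and promoter motifs were not analysed here.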

Additional observations from a re-analysis of the deposited data

How the results depend on the processing

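Of the 7 genes called at 300 mg/L against control, PHO89, SPL2 and PHO8 passed in all 19 alternatives tried, PHO81 and VTC3 in 18, GIT1 in 14 and PHO86 in 12, and VTC1, not called, passed in 5. None of these 8 changed direction. Centring on hybridization spike-ins, whose own levels vary between arrays, gave 3 calls among the 10 genes against control and 2 against 50 mg/L. Under it 5 other phosphate genes passed against 50 mg/L in place of 11, and 5 and 3 calcineurin genes against control and 50 mg/L in place of 10 and 9. PHO4, PHO90, IPK1, CNB1, CMP2 and CNA1 were among the genes that lost their call against control. Over all genes it gave 1532 calls in place of 2872 and 1417 in place of 2878, and it shifted the median gene by -0.11 at 50 mg/L. With 1 array left out, calls among the 10 genes ranged from 5 to 8 against control, from 3 to 6 against 50 mg/L and stayed at 0 for 50 mg/L against control. The ranges were 7 to 11 and 8 to 12 for the other phosphate genes and 6 to 11 and 6 to 9 for the calcineurin genes, against control and 50 mg/L. A replicate block over the 6 control and 50 mg/L arrays was an alternative chosen after seeing the data: 0 of the 10 genes passed and 1 of all genes did, in place of 0. With the replicate block over all 9 arrays, 6 of the 10 passed against control, PHO86 being lost (adjusted p = 0.0588), and 5 against 50 mg/L. The filter keeping only genes above background on every array was also added after seeing the data. The cause of these shifts was not tested.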

Other observations

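The genes next to the 10 phosphate genes in the R64 gene order were looked up by position, and 16 of 20 neighbours were measured. At 300 mg/L against control 3 of them rose and 3 fell by limma, 6 in all, where 52.7% of all genes passed. Beside PHO89, PCA1, a metal-transporting ATPase gene, rose by 0.57 ± 0.08 (SE). Beside SPL2, which rose, ARO9, an aromatic aminotransferase gene, fell by 0.96 ± 0.09, and the casein kinase gene YCK1 did not pass. PHO8, which fell, lies between DIG2, which fell by 0.42 ± 0.09, and CWC21, a splicing factor gene, which rose by 0.50 ± 0.07. Beside VTC1, the aldehyde dehydrogenase gene ALD5 rose by 0.72 ± 0.09.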
